A study of Mus musculus with 8 samples.

Results

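The regions described here lie at 31 genes of the myeloid lineage, the branch of blood formation that gives rise to granulocytes, monocytes and macrophages, and were measured in transformed mouse pro-B cells. A region of accessible DNA was taken as a member when the nearest protein-coding gene span (RefSeq, GRCm38) was one of these genes and lay within 100 kb of the centre of the region. This gave 113 of the 54239 regions tested in the EBF1-dTAG_C line and 95 of the 55193 tested in the EBF1-dTAG_N line. Joined where they overlap, these are 134 distinct regions at 27 of the 31 genes. Cd14, Elane, Mpo and S100a8 had no region in either table.

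Accessibility was measured by ATAC-seq, in which the transposase Tn5 cuts open DNA. The cells were A-MuLV transformed pro-B cells, carrying the Abelson leukaemia virus, in which the endogenous transcription factor EBF1 had been replaced by an exogenous modified form, named EBF1-dTAG_C or EBF1-dTAG_N. The dTAG name stands for a degron, by which a protein is marked for breakdown when the compound dTAG-13 is added. Cells of each line received 0.5 uM dTAG-13 or the solvent DMSO for 6 h, with 2 libraries in each of the 4 groups, called biological replicates by the series. Both lines are transformed cultures, and the labels do not give the number of clones behind each. The titles call the DMSO libraries 0 h, while the treatment label gives 6 h of DMSO, which was followed. EBF1 protein was not measured here.

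EBF1 specifies the B cell lineage together with PAX5, and both are known for holding back the programmes of other blood lineages. The myeloid programme is driven by PU.1 and by the C/EBP factors, and C/EBP alpha can turn B lineage cells into macrophages. Its products are receptors for colony-stimulating factors, granule enzymes, Fc receptors, integrins, sensors of microbes and the phagocyte oxidase. These lists served to ask which myeloid loci are open in pro-B cells and which way they move when dTAG-13 is given.

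The peak lists held 34202 to 42139 peaks per library, and the dTAG-13 lists were the shorter ones in both lines. Sequencing depth in reads is unknown, and the part of list length in the missing peaks below was not tested. All 10 pro-B marker genes checked had a peak in or within 1 kb of the gene in at least 1 list, and 8 of them in all 8 lists; Rag1 and Rag2 were the exceptions. Of 4 matched T cell markers none had such a peak in all 8 lists, and Cd3g and Cd8a had none. Of the 4 erythroid markers only Klf1 had such a peak in all 8 lists. Of the 31 myeloid genes, 9 had such a peak in all 8 lists and 9 had none. In each list, 61 to 85 peaks were assigned to the myeloid genes, or 0.166% to 0.219% of the list.

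At 14 of 24 myeloid gene starts no library had a called peak, while 4 had one in every library. A missing peak does not show that a start was closed. The RefSeq promoter table lists a start for 24 of the 31 genes; Cebpd, Cebpe, Csf1r, Csf2rb, Adgre1, Cd14 and Tlr4 are not in it. A peak within 1 kb of the start was present in all 8 lists for 4 of the 24, in 1 to 7 lists for 6 and in no list for 14. Over all genes with a listed start, 42.8% had a peak in all 8 lists and 49.8% in none. With DMSO, both lists held such a peak for 7 genes in EBF1-dTAG_C and for 5 in EBF1-dTAG_N. Over all 17492 protein-coding genes with a listed start, 45.7% had one in both DMSO lists of EBF1-dTAG_C and 45.6% in those of EBF1-dTAG_N. The starts with a peak within 1 kb in all 8 lists were those of Gfi1, Csf2ra, Fcgr3 and Ncf1. Gfi1 is a zinc finger repressor gene used in both lymphoid and granulocyte development. Csf2ra encodes the alpha chain of the GM-CSF receptor, Fcgr3 a low-affinity Fc receptor and Ncf1 a cytosolic subunit of the phagocyte oxidase. At Csf2ra the peak lay inside the gene. No list had a peak from 250 bases before to 50 bases after its start. Without a listed start, Csf2rb, the shared beta chain of the GM-CSF receptor, and Tlr4, the receptor for bacterial lipopolysaccharide, had a peak within 1 kb of a gene end in all 8 lists.

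The starts with no called peak were those of Cebpa and Cebpb, of Klf4, a factor of monocyte development, of the G-CSF receptor gene Csf3r, of Mpo, Elane, Prtn3 and Ctsg, which encode myeloperoxidase and serine proteases of neutrophil granules, of S100a8 and S100a9, which encode the subunits of calprotectin, of Fcer1g, the signalling chain of Fc receptors, of Itgam, which encodes the integrin CD11b, of Ly86 and of Cybb, the membrane subunit of the oxidase. The nearest peak of any list to the Cebpa gene was 20769 bp away and that to Klf4 48571 bp. At S100a8 it was 15870 bp, at Mpo 3896 bp and at Elane 2342 bp. These 14 starts were grouped because no list held a peak there, the dTAG-13 lists of both lines included. The lack of dTAG-13 peaks at them is thus part of the choice and not a separate result.

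**Figure D1:**
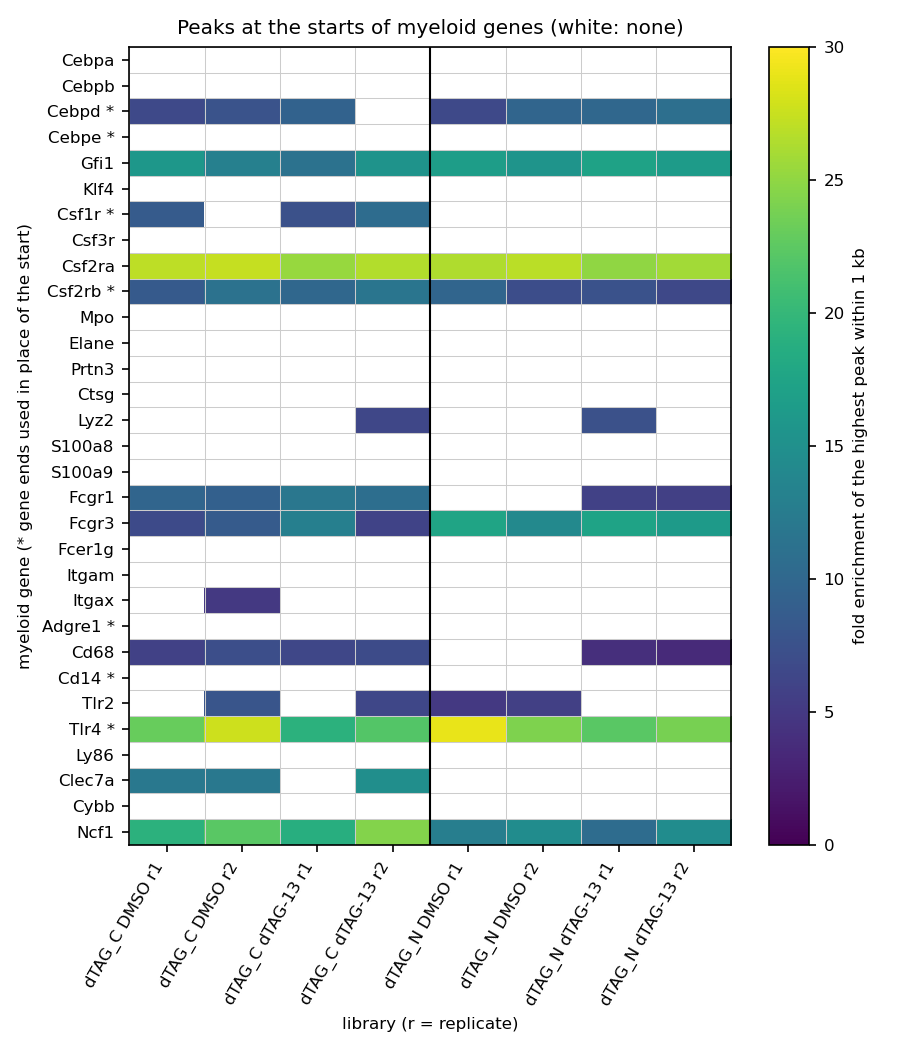
Fold enrichment of the highest peak within 1 kb of the start of each of the 31 myeloid genes (rows; gene ends where marked with an asterisk) in each of the 8 libraries (columns), coloured from 0 to 30, with white where no peak was called. Gfi1, Csf2ra, Fcgr3 and Ncf1 are coloured in all 8 columns, while the granule genes are white except for single lists at Lyz2.

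Fcgr1, which encodes the high-affinity Fc receptor for IgG, and Cd68, a macrophage lysosomal marker gene, had a start that was open after dTAG-13 and not called with DMSO in EBF1-dTAG_N. At Fcgr1 the 2 dTAG-13 lists of EBF1-dTAG_N gave a peak fold enrichment of 5.76 and 5.63 and the 2 DMSO lists gave no peak. At Cd68 they gave 4.07 and 3.57, again with no DMSO peak. Fold enrichment is the authors' own value of a peak over the background of its library, and it describes a peak within its list. In EBF1-dTAG_C both starts had a peak in all 4 lists, from 9.22 to 11.9 at Fcgr1 and from 5.75 to 7.20 at Cd68. Lyz2, the macrophage lysozyme gene, had a start peak in only 1 dTAG-13 list of each line, at 6.36 in EBF1-dTAG_C and 7.42 in EBF1-dTAG_N. At Clec7a, the gene of the beta-glucan receptor dectin-1, the start was open in both DMSO lists (12.0 and 12.0) and 1 dTAG-13 list (14.9) of EBF1-dTAG_C and in no list of EBF1-dTAG_N. Tlr2, a receptor gene for bacterial lipopeptides, had a weak start peak in both DMSO lists of EBF1-dTAG_N (4.97 and 5.71), in neither dTAG-13 list, and in 1 list of each treatment in EBF1-dTAG_C.

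The promoter sequences of 3 genes whose start region rose in EBF1-dTAG_N (Fcgr3, Fcgr1 and Cd68) and of 2 granule genes whose start had no peak (Mpo and Elane) are shown to compare the letters of myeloid starts with and without a called peak. They are RefSeq windows of GRCm38.p6, from 250 bases before to 50 bases after the start, 5′ to 3′ on the strand of the gene. Capitals mark a match to a C/EBP motif (TTGCNNAA) or a PU.1 motif (GAGGAAGT), searched on both strands.
Fcgr3 (the first of its 2 listed starts), chr1:171059354-171059653, minus strand: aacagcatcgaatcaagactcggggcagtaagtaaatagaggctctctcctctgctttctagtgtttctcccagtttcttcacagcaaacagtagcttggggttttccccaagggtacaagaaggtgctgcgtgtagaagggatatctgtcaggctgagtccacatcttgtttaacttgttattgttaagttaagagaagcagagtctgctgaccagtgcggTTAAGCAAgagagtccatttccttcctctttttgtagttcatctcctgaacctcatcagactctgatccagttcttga
Fcgr1, chr3:96293920-96294219, minus strand: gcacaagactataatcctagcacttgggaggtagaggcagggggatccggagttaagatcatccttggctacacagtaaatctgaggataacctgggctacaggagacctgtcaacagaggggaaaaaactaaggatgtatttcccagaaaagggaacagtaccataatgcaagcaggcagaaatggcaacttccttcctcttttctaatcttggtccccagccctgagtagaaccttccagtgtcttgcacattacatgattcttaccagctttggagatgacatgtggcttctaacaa
Cd68, chr11:69666121-69666420, minus strand: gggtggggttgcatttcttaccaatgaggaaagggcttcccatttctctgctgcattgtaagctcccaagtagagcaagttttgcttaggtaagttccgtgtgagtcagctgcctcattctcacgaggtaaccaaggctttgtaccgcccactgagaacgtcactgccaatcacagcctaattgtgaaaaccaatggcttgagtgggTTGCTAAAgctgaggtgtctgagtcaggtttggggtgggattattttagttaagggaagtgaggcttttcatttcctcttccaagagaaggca
Mpo, chr11:87793534-87793833, plus strand: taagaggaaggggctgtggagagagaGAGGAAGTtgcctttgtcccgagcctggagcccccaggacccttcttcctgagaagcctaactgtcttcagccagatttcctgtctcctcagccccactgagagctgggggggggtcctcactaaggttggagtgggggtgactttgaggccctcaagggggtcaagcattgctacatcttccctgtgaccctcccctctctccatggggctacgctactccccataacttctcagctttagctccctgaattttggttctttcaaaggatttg
Elane, chr10:79886062-79886361, plus strand: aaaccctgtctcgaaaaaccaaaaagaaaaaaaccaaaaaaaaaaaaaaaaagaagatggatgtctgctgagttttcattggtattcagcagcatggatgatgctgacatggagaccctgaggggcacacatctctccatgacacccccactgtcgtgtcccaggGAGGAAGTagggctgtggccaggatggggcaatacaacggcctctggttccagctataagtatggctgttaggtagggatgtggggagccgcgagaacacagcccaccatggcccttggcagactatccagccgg

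The EBF motif searched, TCCC and GGGA with 2 bases of any kind between them, reads the same on both strands. It was in none of the 27 listed windows of the 24 genes and in 0.959% of the 21263 windows of all protein-coding genes. The C/EBP motif was in the windows of 4 of the 24 genes, Cd68, Fcgr3, Gfi1 and S100a9, and in 10.2% of all windows. The PU.1 motif was in those of Mpo, Elane, Prtn3 and S100a8, and in 3.13% of all windows. No window of a myeloid gene held more than 1 of these 3 motifs. These are matches of letters and say nothing of binding. The 4 windows with the PU.1 letters overlapped no peak in any of the 8 lists. Their starts are among the 14 of 24 grouped above because no list held a peak there. The lack of peaks thus follows from that choice and says nothing of the motif.

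Counting every assigned region, starts included, 22 of the 31 genes in EBF1-dTAG_C and 18 in EBF1-dTAG_N had a region with a peak in both DMSO lists. Over all 21900 protein-coding genes, 58.4% had one in EBF1-dTAG_C and 57.5% in EBF1-dTAG_N. For Ncf1 in both lines, for Cd68 and Clec7a in EBF1-dTAG_C and for Gfi1 in EBF1-dTAG_N, the start region was the only such region. The loci with the most regions were Itgam (11), Fcgr1 (10), Cebpb, Tlr4 and Ly86 (9 each) in EBF1-dTAG_C, and Tlr4 (14) and Cebpb (13) in EBF1-dTAG_N. Mean abundance was close to that of other regions, with a median of 2.19 on the log2 CPM scale in EBF1-dTAG_C against 2.42 over all regions, and 2.28 against 2.47 in EBF1-dTAG_N, by the authors' deposited tables. The most abundant member region was the one inside Csf2ra, at 7.62 and 7.39 on the log2 CPM scale by the authors' deposited tables of the 2 lines. Cebpa, Csf1r, Ctsg and Clec7a had regions in the EBF1-dTAG_C table only. Of these, Csf1r, which encodes the M-CSF receptor, had 3 regions inside the gene, and no list of EBF1-dTAG_N held a peak within 1 kb of its ends.

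At 6 h of dTAG-13, few myeloid regions were called in EBF1-dTAG_C and many in EBF1-dTAG_N, in both directions. The tests of the 2 lines measured spread differently, as given below. These counts therefore do not compare how far regions moved in the 2 lines. A region is said to have fallen or risen where the adjusted p of the authors' deposited table was under 0.05, and a positive fold means more accessible after dTAG-13. In EBF1-dTAG_C, 2 of 113 member regions fell, against 6.62% of all regions, and 1 rose, against 0.308%. In EBF1-dTAG_N, 18 of 95 fell (18.9%, against 18.5% of all regions) and 24 rose (25.3%, against 18.8%). The share that fell in EBF1-dTAG_N was thus near that of the whole table. With folds centred on the median of the table (0.17 on the log2 scale in EBF1-dTAG_N), 19 fell and 14 rose there, against 20.8% and 7.98% of all regions. In EBF1-dTAG_C, centred in the same way, 3 fell and 1 rose, against 7.39% and 0.162%. By gene, 2 genes had a falling and 1 a rising region in EBF1-dTAG_C, where 16.3% and 1.01% of all 14599 genes with a region did. In EBF1-dTAG_N, 6 genes had a falling and 15 a rising region, 4 of them both, where 34.2% and 41.5% of all 14376 genes with a region did.

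The test behind the authors' deposited table of EBF1-dTAG_N pooled the spread over regions (110386 denominator degrees of freedom, against 11.2 in EBF1-dTAG_C), so the adjusted p-values of the 2 lines are not comparable. Read against 11.2 degrees of freedom, 14 member regions fell and 16 rose in EBF1-dTAG_N, against 16.3% and 12.4% of all regions. That reading kept the F values of EBF1-dTAG_N and so their pooled spread. The tables give no values per library. Over all member regions, the median fold of the authors' deposited tables was 0.22 on the log2 scale in EBF1-dTAG_C (all regions: 0.09) and 0.17 in EBF1-dTAG_N (all regions: 0.17). An absolute log2 fold of at least 1, called or not, was seen at 17.7% of member regions in EBF1-dTAG_C (all regions: 16.4%). In EBF1-dTAG_N it was seen at 27.4% (all regions: 25.6%).

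**Figure D2:**
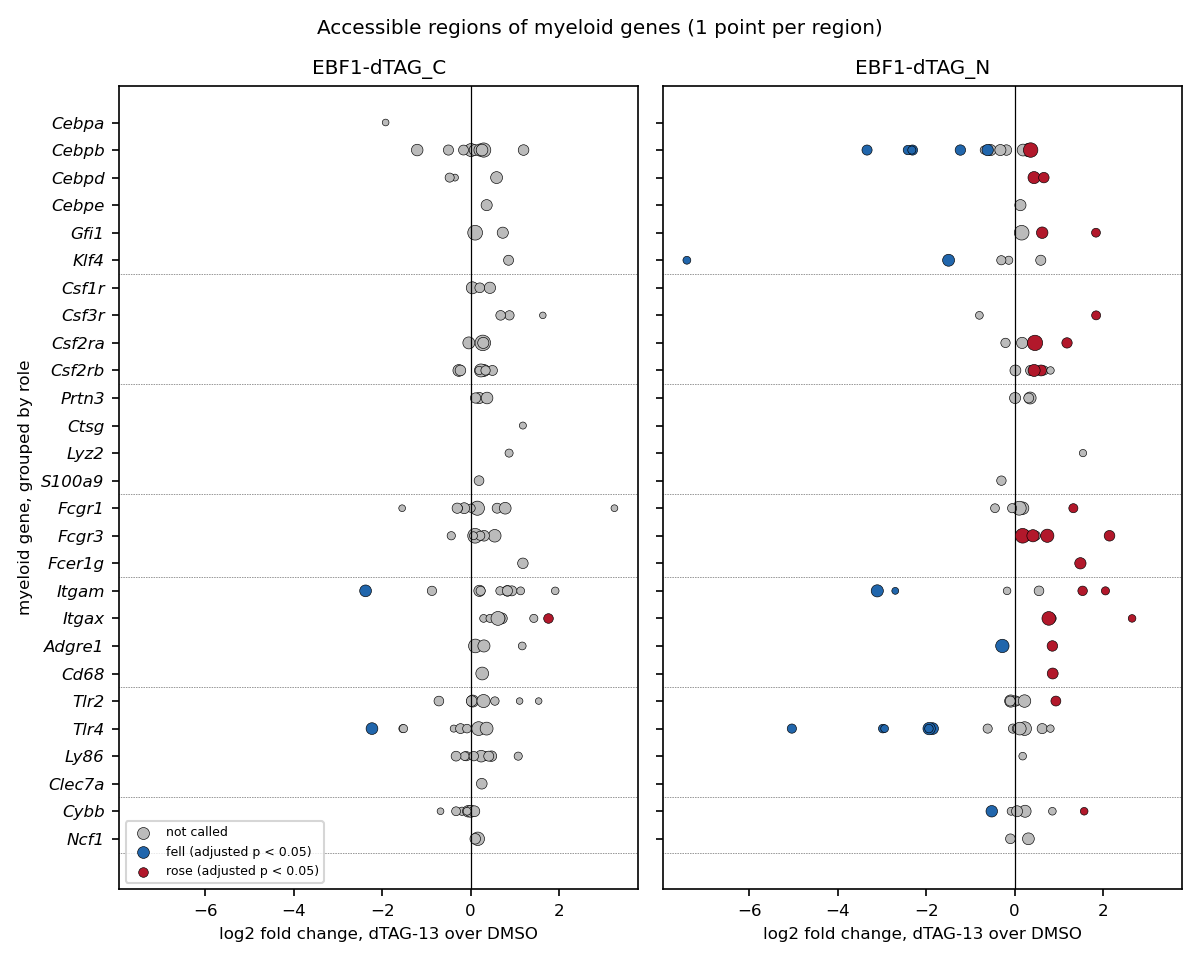
Each point is a region of a myeloid gene (rows, in groups by role), placed at its log2 fold change of dTAG-13 over DMSO by the authors' deposited table of each line, with larger points for higher mean abundance. In EBF1-dTAG_C 3 points are coloured as called, while in EBF1-dTAG_N 18 falls (blue) and 24 rises (red) are spread over 17 genes.

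Among the transcription factor genes, 8 of 24 regions fell in EBF1-dTAG_N (all regions: 18.5%) and 5 rose (18.8%). On centred folds 9 fell and 1, at Gfi1, rose (all regions: 20.8% and 7.98%). None of 17 was called in EBF1-dTAG_C, where 6.62% of all regions fell and 0.308% rose. Cebpb and Klf4 had falling distal regions in EBF1-dTAG_N, and Cebpd and Gfi1 had rising ones. Cebpb encodes C/EBP beta, a factor of macrophage activation and emergency granulocyte formation. Of its 13 regions in EBF1-dTAG_N, 6 fell and 1 rose (all regions: 18.5% and 18.8%). The one with the largest fall lay 65.0 kb downstream of the gene (chromosome 2, 167755225 to 167755572), with a DMSO peak of 10.8 and 13.3 and no dTAG-13 peak. It was 10.1-fold lower by the authors' deposited table (adjusted p = 4.54e-14). Falls of 4.96-fold at 10.6 kb upstream (DMSO peaks of 7.50 and 8.65, no dTAG-13 peak) and of 5.33-fold at 2.31 kb upstream (1 DMSO peak of 6.73) followed, per the authors' deposited table (adjusted p = 4.94e-09 and 1.93e-06). A region 94.9 kb downstream was 2.34-fold lower, with peaks of 8.12 and 6.76 in the DMSO lists and of 5.83 in dTAG-13 replicate 2 (adjusted p = 0.000295 by the authors' deposited table). The remaining falls of the authors' deposited table were 5.01-fold at 58.1 kb, with a peak in 1 DMSO list, and 1.53-fold at 87.0 kb downstream, with a peak in all 4 lists.

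None of the Cebpb regions with a fall of over 2-fold had a peak in any list of EBF1-dTAG_C, treated or not. The 87.0 kb region was shared, and there the fold in EBF1-dTAG_C was -1.21 on the log2 scale by the authors' deposited table (adjusted p = 0.0718). Its peaks in EBF1-dTAG_C were 11.5 and 12.5 with DMSO and 7.16 in dTAG-13 replicate 2 alone. Other Cebpb regions were open in all 8 lists. At 7.6 kb downstream, EBF1-dTAG_C gave 23.8 and 22.3 with DMSO and 20.3 and 23.9 with dTAG-13, and EBF1-dTAG_N gave 18.8 and 22.9 with DMSO and 17.0 and 23.5 with dTAG-13. The treatments overlap in both lines at this region, whose adjusted p was 0.753 and 0.445 by the authors' deposited tables. A broad region 22.6 kb downstream, with a mean abundance of 6.42 log2 CPM, was 1.28-fold higher in EBF1-dTAG_N by the authors' deposited table (adjusted p = 4.61e-05, and 0.0554 on centred folds), although its DMSO peaks (24.3 and 22.5) were above its dTAG-13 peaks (19.6 and 20.8). In EBF1-dTAG_C the Cebpb region nearest to a call was 69.7 kb downstream, with peaks of 7.21 and 5.46 with DMSO and of 13.4 and 14.4 with dTAG-13. It stood at 2.29 times the DMSO level by the authors' deposited table (adjusted p = 0.0503).

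Klf4 had 5 regions in EBF1-dTAG_N, all 48.7 kb or more from the gene. The strongest, 53.9 kb upstream (chromosome 4, 55586176 to 55586589), had peaks of 23.2 and 22.3 with DMSO and of 8.78 and 9.35 with dTAG-13. The DMSO peaks ranked at the 88.6 and 87.7 percentile of their lists by fold enrichment, the dTAG-13 peaks at 43.9 and 46.3. The region was 2.82-fold lower by the authors' deposited table (adjusted p = 1.08e-12). No list of EBF1-dTAG_C had a peak there. A weaker region at 48.7 kb had a peak in DMSO replicate 2 alone (6.43), a mean abundance of 0.71 log2 CPM and a fold of -7.41 on the log2 scale by the authors' deposited table (adjusted p = 2.75e-06). The only region of Klf4 in EBF1-dTAG_C, 57.1 kb downstream, had a peak in all 4 lists and was at 0.86 on the log2 scale by the authors' deposited table (adjusted p = 0.411).

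At Gfi1, the start itself was open and not called in either line, with peaks of 15.9 and 13.1 with DMSO and 11.3 and 15.5 with dTAG-13 in EBF1-dTAG_C. In EBF1-dTAG_N these were 16.7 and 15.6 with DMSO and 17.3 and 16.5 with dTAG-13. A region 8.40 kb downstream had peaks only in the dTAG-13 lists of EBF1-dTAG_N (5.19 and 4.37) and was 3.58-fold higher by the authors' deposited table (adjusted p = 0.000410). In EBF1-dTAG_C the overlapping region had DMSO peaks of 6.70 and 6.01 and 1 dTAG-13 peak of 5.95, and its fold was 0.73 on the log2 scale (adjusted p = 0.272 by the authors' deposited table). A second rise at Gfi1, 1.06 kb upstream of the gene and 1.54-fold by the authors' deposited table, did not pass on centred folds (adjusted p = 0.0896). Both Cebpd regions of EBF1-dTAG_N, at or inside the gene of C/EBP delta, rose, 1.36-fold and 1.58-fold per the authors' deposited table. Neither passed on centred folds (adjusted p = 0.259 and 0.191). Cebpe, a factor gene of late granulocyte maturation, had 1 region per line and Cebpa 1 in EBF1-dTAG_C; none was called. The Cebpa region, 20.9 kb from the gene, had a peak in 1 DMSO list only (5.95) and a mean abundance of 0.07 log2 CPM by the authors' deposited table.

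At the growth factor receptor genes, 5 of 12 regions rose in EBF1-dTAG_N (all regions: 18.8%) and 0 fell (18.5%). On centred folds 3 rose (all regions: 7.98%). Csf2ra had a strong open region inside the gene, with peaks of 27.0 and 27.4 with DMSO and 25.4 and 26.5 with dTAG-13 in EBF1-dTAG_C. In EBF1-dTAG_N they were 26.5 and 26.9 with DMSO and 25.1 and 25.8 with dTAG-13. The treated and control peaks differ little there, while the authors' deposited table gave a 1.38-fold rise in EBF1-dTAG_N (adjusted p = 2.05e-13). In EBF1-dTAG_C that fold was 0.28 on the log2 scale by the authors' deposited table (adjusted p = 0.0985). A region 6.31 kb upstream of Csf2ra rose 2.27-fold in EBF1-dTAG_N by the authors' deposited table (adjusted p = 0.000284), with peaks of 7.30 and 9.91 with DMSO and of 12.8 and 17.7 with dTAG-13. At Csf3r, a region 19.4 kb upstream was 3.59-fold higher by the authors' deposited table for EBF1-dTAG_N (adjusted p = 0.000256), with 1 peak per treatment (6.43 and 5.94). The 2 rises at Csf2rb, of 1.51-fold and 1.36-fold by the authors' deposited table, did not pass on centred folds (adjusted p = 0.201 and 0.271). None of the 16 receptor regions in EBF1-dTAG_C was called, the 3 of Csf1r included, where 0.308% of all regions rose and 6.62% fell.

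No region of a granule or antimicrobial gene was called in either line, which says little, since they were few. Over all regions, 6.62% fell and 0.308% rose in EBF1-dTAG_C, and 18.5% fell and 18.8% rose in EBF1-dTAG_N. There were 6 granule or antimicrobial gene regions in EBF1-dTAG_C and 5 in EBF1-dTAG_N, at Prtn3, Ctsg, Lyz2 and S100a9. The most abundant, 1.76 kb upstream of Prtn3 in EBF1-dTAG_N, had peaks of 10.1 and 9.54 with DMSO and of 9.60 and 9.32 with dTAG-13. Its fold was 0.35 on the log2 scale by the authors' deposited table (adjusted p = 0.117). At the start of Lyz2 the fold was 0.87 in EBF1-dTAG_C and 1.55 in EBF1-dTAG_N on the log2 scale by the authors' deposited tables, and neither passed (adjusted p = 0.623 and 0.0883).

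Among the Fc receptor genes, 6 of 13 regions rose in EBF1-dTAG_N (all regions: 18.8%) and 0 fell (18.5%). On centred folds 4 rose (all regions: 7.98%). In EBF1-dTAG_C none of 17 was called, where 0.308% of all regions rose and 6.62% fell. Fcer1g had 1 region, inside the gene and 2.38 kb from its start (chromosome 1, 171231755 to 171232192). Its peaks in EBF1-dTAG_N were 7.57 and 9.20 with DMSO and 8.28 and 10.9 with dTAG-13, ranges that overlap, and it was 2.80-fold higher by the authors' deposited table (adjusted p = 5.88e-10). In EBF1-dTAG_C the peaks were absent and 4.51 with DMSO and 6.30 and 5.38 with dTAG-13, and the fold was 1.18 on the log2 scale by the authors' deposited table (adjusted p = 0.199). At Fcgr3, a region 1.15 kb downstream (chromosome 1, 171049875 to 171050165) had no peak and a peak of 5.51 with DMSO and peaks of 7.39 and 7.20 with dTAG-13. The authors' deposited table gave a 4.43-fold rise there (adjusted p = 9.34e-13), and no list of EBF1-dTAG_C held a peak at this region.

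The next Fcgr3 region, 0.223 kb downstream of the gene, was 1.67-fold higher by the authors' deposited table for EBF1-dTAG_N (adjusted p = 3.36e-08). Its peaks did not move the same way, with 23.7 and 20.3 with DMSO and 18.0 and 19.6 with dTAG-13. The region at the start of Fcgr3, whose sequence is given above, was 1.33-fold higher and that at 6.50 kb downstream 1.13-fold higher by the authors' deposited table. Neither passed on centred folds (adjusted p = 0.310 and 0.935). The start region of Fcgr1 rose 2.51-fold by the authors' deposited table for EBF1-dTAG_N (adjusted p = 0.00665), and in EBF1-dTAG_C its fold was 0.78 on the log2 scale (adjusted p = 0.103).

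Among the integrin and surface marker genes, 3 of 12 regions fell in EBF1-dTAG_N (all regions: 18.5%) and 6 rose (18.8%). On centred folds 3 fell and 6 rose (all regions: 20.8% and 7.98%). In EBF1-dTAG_C, 1 of 22 fell (all regions: 6.62%) and 1 rose (0.308%). Itgam held the strongest fall that both lines shared. The region lies inside the gene, 38.3 kb from its start (chromosome 7, 128100779 to 128101195 in EBF1-dTAG_N). Its peaks in EBF1-dTAG_C were 19.1 and 17.2 with DMSO and absent from both dTAG-13 lists. In EBF1-dTAG_N they were 22.02 and 29.2 with DMSO, 6.08 in dTAG-13 replicate 1 and absent in replicate 2. All 4 DMSO libraries thus had a strong peak and the dTAG-13 libraries had a weak one or none. The DMSO peaks ranked between the 79.0 and 98.1 percentile of their lists by fold enrichment. Accessibility was reduced 5.19-fold in EBF1-dTAG_C (adjusted p = 0.000309) and 8.62-fold in EBF1-dTAG_N (adjusted p = 1.60e-42), by the authors' deposited tables.

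Other regions of Itgam moved the other way in EBF1-dTAG_N. A region 42.8 kb from the start was 4.15-fold higher and 1 at 11.8 kb upstream 2.90-fold higher by the authors' deposited table (adjusted p = 0.00221 and 0.000270). Their mean abundances were 0.90 and 1.81 on the log2 CPM scale by the authors' deposited table. The second fall at Itgam, 6.50-fold at 18.3 kb upstream, had a mean abundance of 0.16 log2 CPM and a peak in 1 DMSO list (adjusted p = 0.0300 by the authors' deposited table). Itgax, the neighbouring gene of the integrin CD11c, held the only region of the set that rose in both lines, 7.68 kb and 7.65 kb from its start. It was 3.34-fold higher in EBF1-dTAG_C (adjusted p = 0.0301) and 6.31-fold higher in EBF1-dTAG_N (adjusted p = 0.00152) by the authors' deposited tables. Its mean abundance was low, at 1.90 log2 CPM in EBF1-dTAG_C and 0.56 log2 CPM in EBF1-dTAG_N by the same tables. Its peaks were 7.96 and 7.42 in the dTAG-13 lists of EBF1-dTAG_C and 5.37 in 1 dTAG-13 list of EBF1-dTAG_N, with none in any DMSO list. A strong region 8.32 kb downstream of Itgax was 1.71-fold higher by the authors' deposited table for EBF1-dTAG_N (adjusted p = 5.19e-12). In EBF1-dTAG_C its fold was 0.62 on the log2 scale (adjusted p = 0.0600 by the authors' deposited table).

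**Figure D3:**
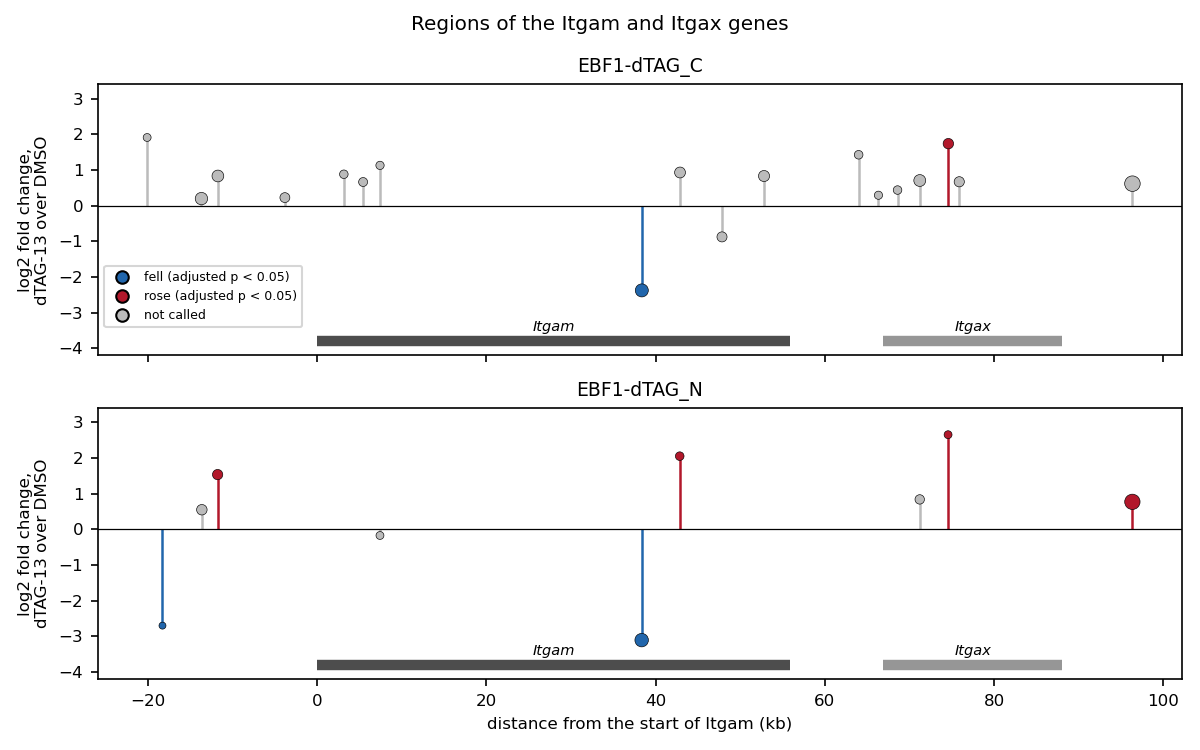
Log2 fold change of dTAG-13 over DMSO (vertical axis) of each region assigned to Itgam or Itgax against its distance from the start of Itgam in kb, for each line, with larger points for higher mean abundance and bars for the gene spans. The blue point inside Itgam at 38.3 kb lies at -2.38 (EBF1-dTAG_C) and -3.11 (EBF1-dTAG_N). The red point inside Itgax lies at 1.74 and 2.66.

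Of the macrophage markers, Cd68 had 1 region, at its start, which rose 1.82-fold by the authors' deposited table for EBF1-dTAG_N (adjusted p = 0.00219). In EBF1-dTAG_C its fold was 0.26 on the log2 scale by the authors' deposited table (adjusted p = 0.592). Adgre1, which encodes F4/80, had 1 region 1.81-fold higher and 1 region 1.21-fold lower in EBF1-dTAG_N by the authors' deposited table (adjusted p = 0.00769 and 0.0497).

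Among the genes of pattern recognition, 6 of 21 regions fell in EBF1-dTAG_N (all regions: 18.5%) and 1 rose (18.8%). On centred folds 6 fell and 0 rose (all regions: 20.8% and 7.98%). In EBF1-dTAG_C, 1 of 26 fell (all regions: 6.62%) and 0 rose (0.308%). Tlr4 had falling regions on both sides of the gene, while the 2 strongest regions at the gene itself were not called. A region 26.8 kb beyond the higher-coordinate end of the gene (chromosome 4, 66873105 to 66873613 in EBF1-dTAG_N) fell in both lines. Its peaks in EBF1-dTAG_C were 15.3 and 17.0 with DMSO, absent in dTAG-13 replicate 1 and 5.26 in replicate 2. In EBF1-dTAG_N they were 16.6 and 20.03 with DMSO and 8.36 and 6.84 with dTAG-13, so that treated and control libraries do not overlap in either line. The fall was 4.70-fold in EBF1-dTAG_C (adjusted p = 0.000435) and 3.82-fold in EBF1-dTAG_N (adjusted p = 9.07e-25) by the authors' deposited tables. A neighbouring region, 25.8 kb from the gene, was open in EBF1-dTAG_N only (DMSO peaks of 10.3 and 8.74, dTAG-13 replicate 2 at 5.18) and fell 3.62-fold by the authors' deposited table (adjusted p = 2.40e-16).

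On the other side of Tlr4, regions at 29.9 kb and 27.0 kb were open in both DMSO lists of EBF1-dTAG_N (7.06 and 6.59, and 6.90 and 5.88) and in no other list. The authors' deposited table gave 32.9-fold and 7.91-fold falls there (adjusted p = 8.69e-12 and 2.04e-05), at mean abundances of 1.61 and 1.19 on the log2 CPM scale. Weak regions inside the gene and at 86.1 kb fell 7.68-fold and 3.83-fold in EBF1-dTAG_N by the authors' deposited table. The same regions were at -1.54 and -1.52 on the log2 scale in EBF1-dTAG_C by the authors' deposited table (adjusted p = 0.318 and 0.315). At the lower-coordinate end of the gene, Tlr4 peaks were 23.0 and 27.7 with DMSO and 19.3 and 21.9 with dTAG-13 in EBF1-dTAG_C. In EBF1-dTAG_N they were 29.0 and 24.3 with DMSO and 22.4 and 23.8 with dTAG-13. That region had an adjusted p of 0.647 in EBF1-dTAG_C and 0.0768 in EBF1-dTAG_N by the authors' deposited tables.

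Tlr2 had 1 rising region, 24.7 kb downstream and 1.91-fold higher by the authors' deposited table for EBF1-dTAG_N (adjusted p = 0.0148, and 0.0643 on centred folds). Its strongest region, 21.4 kb upstream, gave 25.7 and 25.5 with DMSO and 22.6 and 28.3 with dTAG-13 in EBF1-dTAG_C and was not called in either line. None of the 9 Ly86 regions in EBF1-dTAG_C was called, nor the 1 in EBF1-dTAG_N, nor the start region of Clec7a. Ly86 encodes MD-1, a partner of the receptor RP105. At the oxidase genes, 1 of 8 regions fell in EBF1-dTAG_N (all regions: 18.5%) and 1 rose (18.8%), both at Cybb. There, 1 of 6 regions was 1.43-fold lower and 1, at low abundance, 2.97-fold higher by the authors' deposited table (adjusted p = 0.0423 and 0.0489). That rise did not pass on centred folds (adjusted p = 0.104), and neither call passed with 11.2 degrees of freedom (adjusted p = 0.0925 for the fall and 0.100 for the rise). At Ncf1 the start, with peaks of 10.6 to 24.5 over the 8 lists, was not called (adjusted p = 0.740 and 0.194 by the authors' deposited tables).

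**Figure D4:**
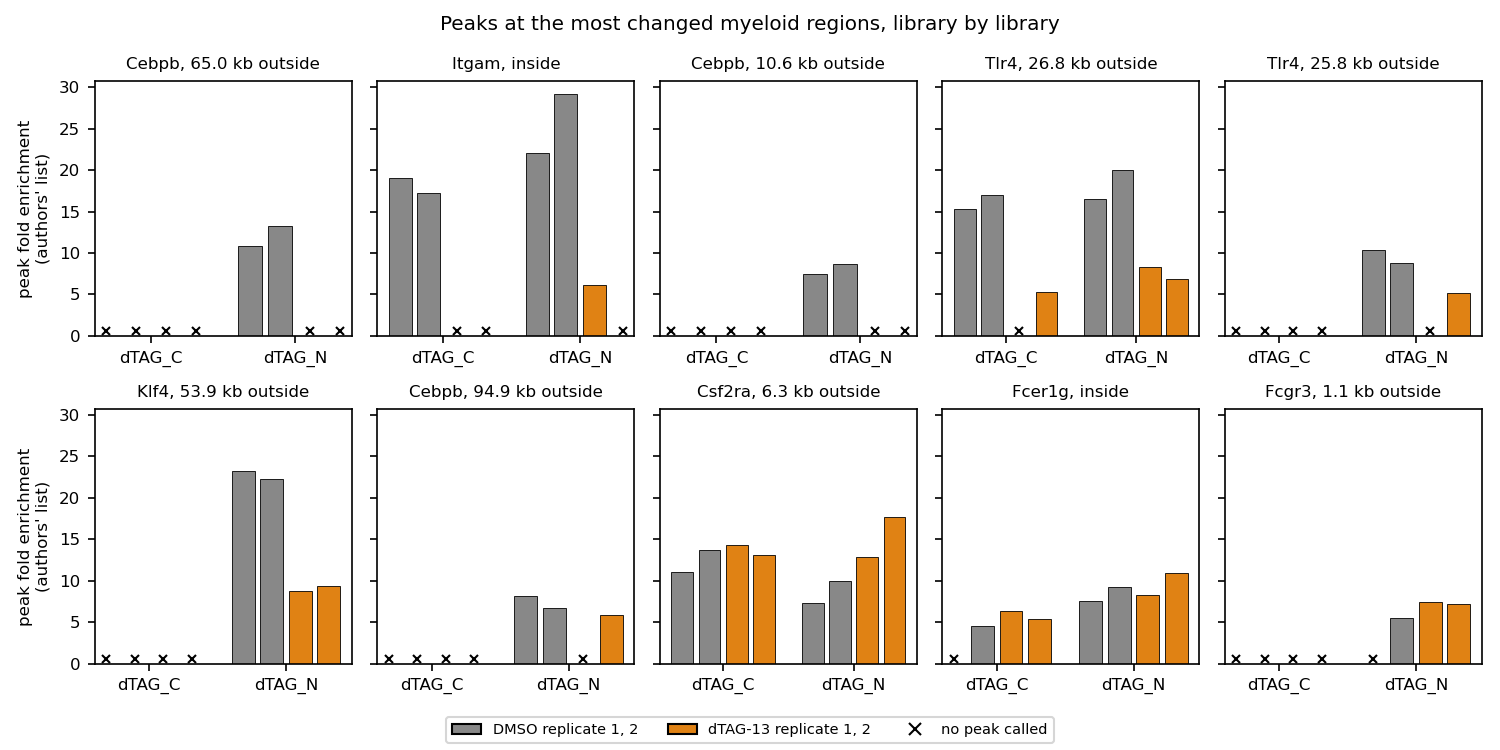
Fold enrichment of the authors' peaks (bars) in each of the 8 libraries at the 10 myeloid regions with a call, a log2 fold change of 1 or more in size and an abundance of at least 2 log2 CPM, a choice made after the values were seen; crosses mark libraries with no peak. The regions of Itgam and Tlr4 at 26.8 kb have DMSO peaks in both lines, while those of Cebpb, Klf4 and Tlr4 at 25.8 kb have peaks in EBF1-dTAG_N alone.

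Of the 18 falls in EBF1-dTAG_N, 11 were beyond 20 kb from the gene, and of the 24 rises, 3 were. There were 29 myeloid regions at that distance. Over all regions beyond 20 kb, 22.8% fell and 17.4% rose. Of the 18 falls, 11 had no peak in any list of EBF1-dTAG_C, all of them at Cebpb, Itgam, Klf4 or Tlr4. Over all falling regions of EBF1-dTAG_N that share was 28.1%. Of the 24 rises 2 had no such peak, 8.33% against 9.40% of all rises. Among the falls, 13 were in the peak lists of both DMSO libraries and 10 had no dTAG-13 peak. Among the rises, 11 were in both DMSO lists and 18 in both dTAG-13 lists. Calls and peak lists come from the same libraries, so these counts follow in part from the calls. Of the 95 regions, 34 had a non-coding gene at least as near as the myeloid gene, 7 of the falls and 9 of the rises among them. Shares over all regions are not given here for the peak-list and non-coding gene counts.

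Where both lines had the region, their folds were set side by side over 74 pairs. Of these, 2 fell in both lines (Itgam and Tlr4), 1 rose in both (Itgax), and none was called in opposite directions. A further 26 pairs were called in EBF1-dTAG_N only. The same counts over all pairs are not given here, so these calls only describe the 74 pairs. Pearson's r across these pairs was 0.77 and Spearman's rho 0.55, against 0.84 and 0.64 over all 42803 pairs of the 2 tables. Regions are not independent replicates, and those of 1 line share its 4 libraries. The lines were compared region by region with an approximate test built from the folds and F values of the authors' deposited tables. None of the 74 pairs differed at an adjusted p under 0.05 (lowest 0.922). Over all pairs 0.00234% did. At an unadjusted p under 0.05, 2 of the 74 pairs (2.70%) and 5.35% of all pairs differed. The median standard error of the difference was 0.45 on the log2 scale. The test could not cover 39 member regions measured only in EBF1-dTAG_C and 21 measured only in EBF1-dTAG_N, and says nothing of these.

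**Figure D5:**
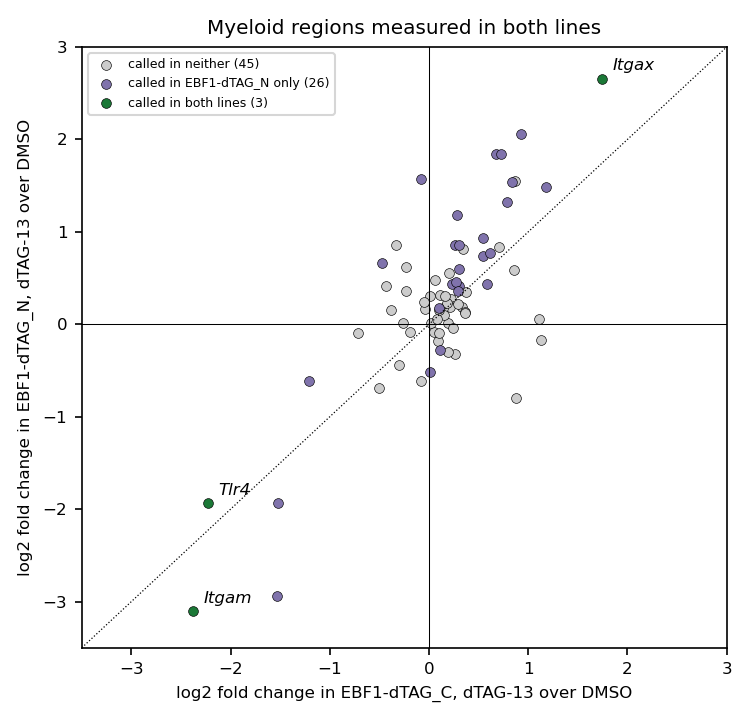
Log2 fold change of dTAG-13 over DMSO in EBF1-dTAG_N (vertical) against EBF1-dTAG_C (horizontal) for the 74 myeloid regions with a counterpart in both of the authors' deposited tables; the dotted line marks equal folds. The 3 green points, called in both lines, lie at the ends of the cloud, Itgam and Tlr4 at the lower left and Itgax at the upper right.

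A list of 40 other myeloid genes was read in the same way. In EBF1-dTAG_C, 15 of its 174 regions fell (8.62%, all regions: 6.62%) and 0 rose (all regions: 0.308%), with the falls at 8 of 33 genes with a region. In EBF1-dTAG_N, 37 of 166 fell (22.3%, all regions: 18.5%) and 33 rose (19.9%, all regions: 18.8%), at 14 and 19 of 32 genes, with 9 genes in both counts. Their median folds by the authors' deposited tables were 0.11 and 0.25 on the log2 scale, against 0.09 and 0.17 over all regions. The smallest adjusted p among the falls belonged to a region 22108 bp from Csf1, the gene of the growth factor M-CSF, which was reduced 17.7-fold (EBF1-dTAG_C) and 20.9-fold (EBF1-dTAG_N) by the authors' deposited tables. A region 13934 bp from Tyrobp, the adaptor gene DAP12, was 9.93-fold lower in EBF1-dTAG_C, and 1 at 803 bp from Irf8, a factor gene of both B cells and monocytes, 3.69-fold lower in EBF1-dTAG_N, by the authors' deposited tables. The first rises of that list in EBF1-dTAG_N were 3.48-fold inside Tlr7 and 2.29-fold inside Mmp9 by the authors' deposited table.

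The limit of 100 kb bears on the falls at Cebpb. Just inside it in EBF1-dTAG_N lay the Cebpb region at 94892 bp (-1.23 on the log2 scale) and a Tlr4 region at 97311 bp (0.81), and just outside it a Csf2ra region at 102957 bp (0.15) and a further Cebpb region at 103557 bp (-2.98 on the log2 scale, adjusted p = 1.68e-12), by the authors' deposited table. In EBF1-dTAG_C the nearest inside were Cebpb regions at 86978 bp (-1.21) and 87564 bp (-0.16), and the nearest outside were regions of Ly86 at 101174 bp (-0.22) and Csf2ra at 102892 bp (-0.65), on the log2 scale of the authors' deposited table.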

How the data were processed

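ATAC-seq peaks of 8 libraries and a table of the comparison of dTAG-13 with DMSO for each line were used. Tools named in the submitters' processing notes are edgeR 3.32.0, MACS2 2.2.7.1, deepTools 3.3.2, Bowtie2 2.3.5.1 and SAMtools 1.10, with the build GRCm38 (mm10). Not given in the sources used here were settings, read filters and any shift of Tn5 sites. Peak lists deposited by the authors, 1 per library, hold the fold enrichment of each peak, its score, and its −log10 p-value and −log10 q-value. The tables deposited by the authors hold a log2 fold change per region, its log2 CPM, an F score, p-values and Benjamini-Hochberg adjusted p-values, with edgeR as their tool per the labels.

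Repeated entries (8 and 12) were counted once. Starts in the files count from 0 and are printed from 1. Regions went to the nearest of 21900 RefSeq protein-coding spans, and calls are those of the authors' tables. The tables were not refitted, since they hold no values per library. No exons, introns or UTRs were used. Folds were negative for 92.7% (EBF1-dTAG_C) and 96.7% (EBF1-dTAG_N) of the other regions whose peaks were in both DMSO lists alone, which sets the direction. The standard error of a fold was its size divided by the root of F. It served for centred folds and for the test between the lines (regions paired by at least 1 bp, Welch-Satterthwaite degrees of freedom), which was tested on simulated data. The simulation took the standard errors of EBF1-dTAG_N as exact, so it cannot show how the test fares where they are not. Python 3.11.15, pandas 2.3.3, NumPy 2.4.6, SciPy 1.17.1 and matplotlib 3.10.9 were used. Alternatives were a threshold of 0.01, an absolute log2 fold of at least 1, centred folds, assignment within 20 kb, repeated entries kept, peaks of −log10 q of at least 5, 11.2 degrees of freedom, an overlap of 50%, and each library left out of the peak counts.

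The members and the gene lists were chosen with earlier results of these data known. Every gene with a region was to be named, with its called regions or, failing these, the one with the smallest p, and the other myeloid genes by the 2 smallest adjusted p per line and direction; lower calls and peak values beyond that were picked after the values were seen. In EBF1-dTAG_C p-values rest in part on the spread between libraries, which may be technical. With 2 libraries per group, 11.2 degrees of freedom also draw on the spread of other regions.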

Additional observations from a re-analysis of the deposited data

How the results depend on the processing

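No paired analysis was possible because the deposited tables hold no values per library; the peak names inside 2 of the lists also carry another replicate number than the label. Single libraries could not be left out of the region tests for the same reason. Of the 18 falls in EBF1-dTAG_N, 14 passed an adjusted p under 0.01, 14 passed with the degrees of freedom of the other table and 18 passed on centred folds; of the 24 rises, 15, 16 and 14 did. With an absolute log2 fold of at least 1 there were 15 falls and 10 rises. Among EBF1-dTAG_N regions with a peak of −log10 q of at least 5 there were 18 falls and 21 rises. The Itgax region that rose in both lines was not among these rises. Nor were the 3.58-fold rise at Gfi1 and the 4.15-fold rise at Itgam. Assignment within 20 kb left 7 falls in EBF1-dTAG_N and 1 in EBF1-dTAG_C, by its construction. The single rise in EBF1-dTAG_C became 0 at an adjusted p under 0.01 and 2 among regions with a peak of −log10 q of at least 5. The number of genes open with DMSO was 20 in EBF1-dTAG_C and 17 in EBF1-dTAG_N with assignment within 20 kb, and 23 to 24 and 19 to 21 without 1 DMSO library. The difference in peaks at myeloid loci, dTAG-13 minus DMSO, was -12 in EBF1-dTAG_C (-16 to -8 without 1 library) and -5.5 in EBF1-dTAG_N (-9 to -2). The lists also shortened, so that myeloid peaks made up 0.201% and then 0.207% of the list in EBF1-dTAG_C and 0.171% in both treatments of EBF1-dTAG_N. With assignment within 20 kb it was -6 and 1, which turns its sign in EBF1-dTAG_N; the cause was not tested. No alternative gave a pair of regions that differed between the lines. Depth in reads is unknown, so a missing peak in a shorter list cannot be told from a closed region.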
